A study of Homo sapiens with 23 samples.

Results

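Chromatin loops at KCNMA1, the gene of the pore-forming alpha subunit of the BK potassium channel, were described from 2 HiChIP lists made from T47D cells, a human breast cancer line that carries the progesterone receptor. A loop was a member when either of its 5 kb bins lay inside a window of 950 kb that starts at 76800001 on chromosome 10 (hg38) and surrounds the gene at chr10:76869602-77637808. The rule found 73 loops of 16666 in all, 49 of 9591 in the T30 library and 24 of 7075 in the T0 library. HiChIP joins DNA ends that lie near each other in the nucleus and enriches them by immunoprecipitation, which in these libraries targeted the progesterone receptor, so a listed loop reflects proximity and pull-down together. The T30 title names PR5020, and the treatment protocol of the series names R5020, a synthetic progestin, and progesterone. Neither the dose nor the unit of the time is stated for the T30 library. The T0 library bears no agent in its labels. Both came from cells held in medium with charcoal-treated serum and then without serum, per the growth and treatment protocols of the series. There was 1 library per condition, so no difference below has a replicate check, and the gene was chosen by its number of partner bins in T30 against T0, so its values are a description with no test. All intervals are 95% intervals for counting error only.

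BK channels open on membrane depolarisation and on a rise of calcium inside the cell, and let potassium out. Beta and gamma subunits, encoded by other genes, set how readily the channel opens. The gene is long and is read from its upper coordinate downwards, so distances below are counted from its start at 77637808, positive into the gene. The table of genes used here gives only the ends of each gene, so bins inside KCNMA1 were not assigned to exons or introns.

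The following 3 promoters of the locus are shown because their bins bear directly on where the loops met: the promoter at the gene start, next to the bin that led in T0; a promoter inside the gene, at which no loop was listed in either library; and the promoter of the antisense RNA KCNMA1-AS2, which met a T0 loop. Sequences are RefSeq, GRCh38.p14, from 250 bases before to 50 bases after each start, and capitals mark the motifs searched.
KCNMA1, gene start, chr10:77637759-77638058, minus strand: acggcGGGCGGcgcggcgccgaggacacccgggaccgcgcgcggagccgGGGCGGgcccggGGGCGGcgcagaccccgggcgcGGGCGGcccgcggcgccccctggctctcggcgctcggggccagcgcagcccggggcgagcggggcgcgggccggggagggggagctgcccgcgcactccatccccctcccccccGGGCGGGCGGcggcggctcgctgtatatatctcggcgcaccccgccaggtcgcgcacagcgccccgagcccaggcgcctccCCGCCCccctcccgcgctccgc
KCNMA1, inner promoter, chr10:77350712-77351011, minus strand: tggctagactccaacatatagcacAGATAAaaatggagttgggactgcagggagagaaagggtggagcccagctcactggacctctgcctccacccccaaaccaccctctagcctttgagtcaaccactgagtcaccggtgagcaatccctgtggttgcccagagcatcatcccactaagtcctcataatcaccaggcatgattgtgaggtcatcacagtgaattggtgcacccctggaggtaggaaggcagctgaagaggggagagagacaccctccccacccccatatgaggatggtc
KCNMA1-AS2, chr10:77140581-77140880, plus strand: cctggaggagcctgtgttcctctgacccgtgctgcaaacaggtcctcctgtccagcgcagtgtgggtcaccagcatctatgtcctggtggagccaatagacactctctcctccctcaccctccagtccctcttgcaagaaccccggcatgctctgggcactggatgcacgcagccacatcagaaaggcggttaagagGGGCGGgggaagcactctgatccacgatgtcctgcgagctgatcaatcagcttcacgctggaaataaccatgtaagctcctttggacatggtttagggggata

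The promoter at the gene start had 85.7% G and C, against a median of 58.7% over the 35116 promoters of the table. It held 7 copies of GGGCGG, counted on both strands and with overlaps, a motif present in 45.0% of all promoters. The inner promoter held 1 AGATAA, the core of the site of GATA factors and present in 10.3% of promoters, and the KCNMA1-AS2 promoter held 1 GGGCGG. None of the 3 held AGAACA (in 14.8% of promoters), a single arm of the progesterone receptor palindrome, nor TGTTTAC, a forkhead-type motif (in 3.42%). The other promoters searched at the locus were those of KCNMA1-AS1 and KCNMA1-AS3, and neither had a loop at its bin in either library. That of KCNMA1-AS1 held 1 AGAACA and 1 TGTTTAC, and that of KCNMA1-AS3 held none of the motifs searched. Promoters of other RNA genes of the locus are not given here, such as that of LOC124902465, which overlaps bins with a T30 loop. The full palindrome was found in 1 of the 35116 promoters, so these windows say nothing about it. The bins that led the loops lie outside these windows, and their sequence was not used here.

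In T30, the loops of KCNMA1 met at a bin deep inside the gene, and in T0 at a bin just before its start. The T30 list held 49 loops with 853 contacts (exact Poisson interval 797 to 912), where a contact is a read pair between both bins. The T0 list held 24 loops with 285 contacts (253 to 320). The ratio of T30 to T0 was 2.04 in loops (exact binomial interval 1.23 to 3.48) and 2.99 in contacts (2.61 to 3.43), where over the whole lists it was 1.36 and 1.06. With at least 10 contacts a loop the ratios were 3.27 (49 and 15 loops) and 4.16 (853 and 205 contacts). The largest p of the T30 list was also set as the limit in both libraries, a setting chosen after seeing the data. The ratios were then 4.08 (49 and 12 loops) and 5.11 (853 and 167 contacts). Neither limit could remove a T30 loop of the locus, the weakest of which had 10 contacts, so these ratios could not fall. At q under 0.01, which removed loops from both, they were 2.92 (35 and 12 loops) and 4.02 (671 and 167 contacts). With lists of equal length they were 1.92 (46 and 24 loops) and 2.89 (823 and 285 contacts). On chromosome 10 the lists held 425 loops in T30 and 368 in T0, of which the locus made up 11.5% and 6.52%. When the genome was divided into windows of 950 kb, 33.1% of the 429 windows with 10 or more loops in either list also had at least 2-fold more loops in T30.

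**Figure D1:**
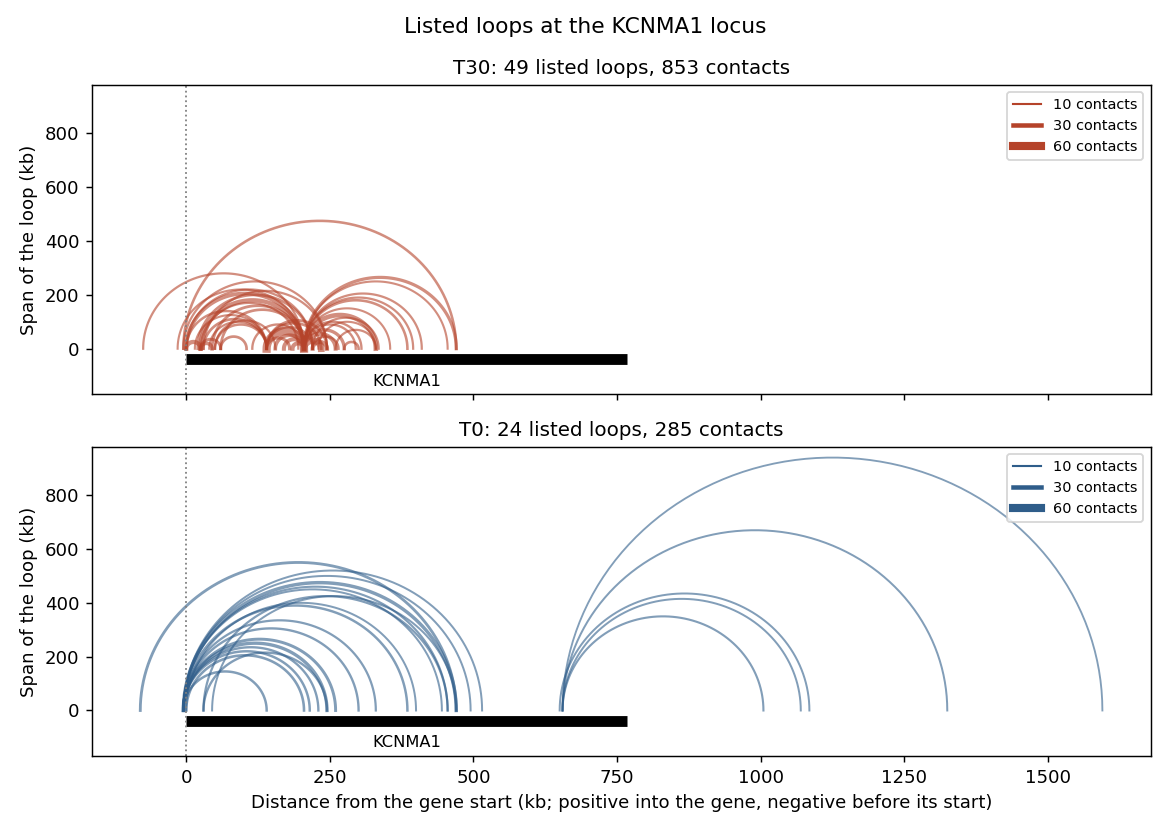
Each arc is a listed loop of the KCNMA1 locus, drawn between its bins at their distance from the gene start in kb (horizontal axis) and as high as its span in kb; the line is wider where contacts are more, and the black bar is the gene. The 49 T30 arcs crowd around a point about 205 kb into the gene, and the 24 T0 arcs leave mostly from a point beside the gene start.

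The leading bin of T30 was chr10:77430001-77435000, 205 kb into the gene. It had 23 partner bins, the distinct bins joined to it, and 477 contacts in T30, against 1 partner and 14 contacts in T0. It held 46.9% of the T30 loops of the locus (exact binomial interval 32.5 to 61.7) and 55.9% of their contacts, against 4.17% of the T0 loops (0.105 to 21.1). Its partners lay on both sides, 12 at lower and 11 at higher coordinates, from 20 to 280 kb away. With the neighbouring bin on each side added, its partners were again 23 in T30 and 1 in T0. By number of partners the bin ranked 3 among the 13649 bins with a loop in T30. The pseudogene COX6CP15 (77433572 to 77433782) is the only other gene of the RefSeq table in the bin.

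The leading bin of T0 was chr10:77640001-77645000, whose near edge lies 2.19 kb before the gene start. It had 2 partners and 25 contacts in T30, against 13 partners and 169 contacts in T0. It held 4.08% of the T30 loops of the locus (0.498 to 13.98) and 54.2% of the T0 loops (32.8 to 74.4). All 13 T0 partners lay at lower coordinates, inside the gene, 145 to 520 kb away. It ranked 5 among the 9909 bins with a loop in T0. With only loops of q under 0.01, its partners numbered 2 in T30 and 8 in T0. The bin of the gene start itself, chr10:77635001-77640000, had 4 partners with 76 contacts in T30 and 2 partners with 23 contacts in T0. The 2 bins at the start had in all 6 loops with 101 contacts in T30 (exact Poisson interval 82.3 to 123), against 15 loops with 192 contacts in T0 (166 to 221).

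Differences of this kind were frequent in these lists. Of 507 bins of the genome with 5 or more partners in either list, 49.7% had at least 2-fold more in T30, as the inner bin of KCNMA1 did, and 36.3% had at least 2-fold fewer, as the bin before its start did. The leading bins lie 210 kb apart. Of the 13 T0 partners of the bin before the start, 6 were also T30 partners of the inner bin, and 8 lay within 1 bin of such a partner.

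**Figure D2:**
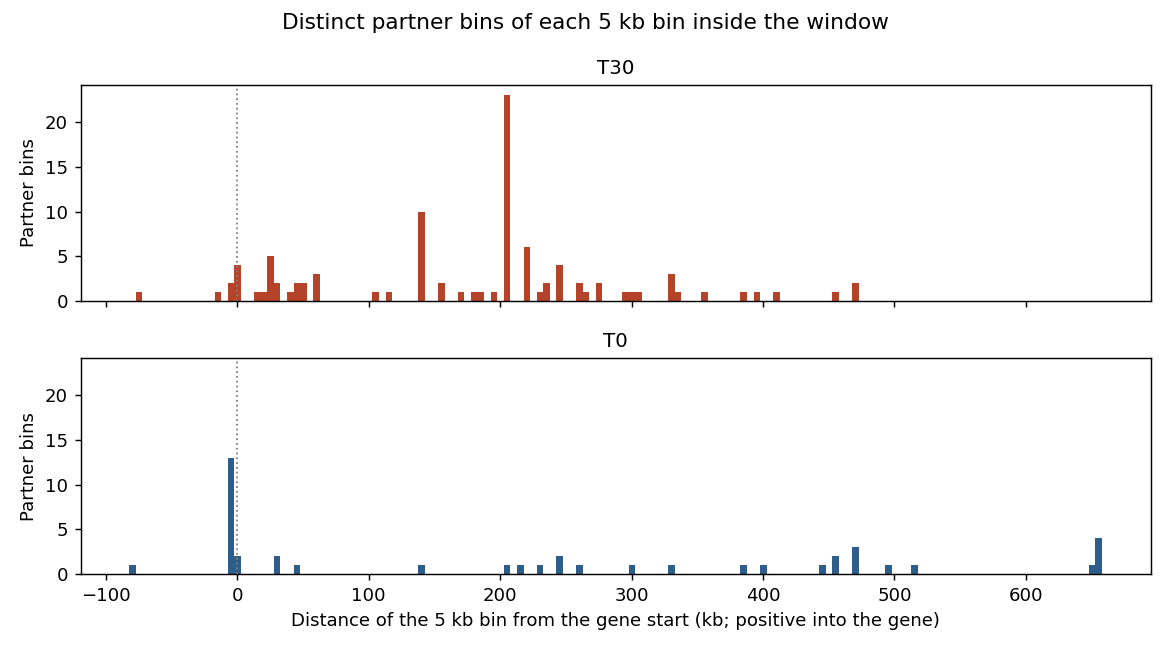
Bars give the number of distinct partner bins (vertical axis) of each 5 kb bin inside the window, by its distance from the gene start in kb (horizontal axis), in T30 above and T0 below. The tallest bar is 23 at 205 kb inside the gene in T30 and 13 at the bin before the start in T0.

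Further bins with several partners were found inside the gene in T30. The bin at 77495001, 140 kb into the gene, had 10 partners and 185 contacts in T30, against 1 partner and 13 contacts in T0. The bin at 77415001 had 6 partners in T30 and 0 in T0, and the bin at 77610001, 25.3 kb into the gene, had 5 and 0. T30 thus had 4 bins with 5 or more partners where T0 had 1. Over the genome, 302 of the 13649 bins with a loop in T30 had that many, and 242 of the 9909 in T0. Of the 6 possible pairs among these 4 bins, 3 were joined by a listed loop: the inner leading bin with 77495001 (61 contacts) and with 77610001 (28 contacts), and 77415001 with 77495001 (12 contacts). A pair with no listed loop of its own can still lie inside a cluster of neighbouring bin pairs merged by the authors. That of 77495001 with 77610001 lay inside a T30 cluster of 29 summed contacts, and that of 77415001 with 77610001 inside one of 64. How a cluster's contacts divide among its bin pairs was not examined. The remaining pair, 77415001 with the inner leading bin, lay closer together than the shortest T30 loop of the locus, of 20 kb. In T30, 41 of the 49 loops had an end in at least 1 of the 4 bins. The bin at 77390001 had 4 partners in T30 and 2 in T0. The bin at 77165001, 470.3 kb into the gene, had 2 partners with 33 contacts in T30 and 3 partners with 46 contacts in T0.

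The strongest T30 loop, between 77430001 and 77495001 with a span of 65 kb, had 61 contacts and an authors' p of 7.05e-57. Loops from 77430001 to 77400001 (48 contacts, 30 kb) and to 77305001 (31 contacts, 125 kb) came next. The loops from 77610001 to 77430001 and to the bin of the gene start had 28 contacts each. In T0 the strongest loop joined 77165001 with the bin before the gene start over 475 kb, with 21 contacts and an authors' p of 2.38e-16. It was followed by loops to that bin from 77390001 (20 contacts) and 77375001 (17), by the loop from 77165001 to 77715001 (16), and by the loop from 77430001 to the bin of the gene start (14). The 5 strongest T30 loops thus each had more contacts than any T0 loop of the locus, but the spans were unlike. These 5 spanned 25 to 180 kb, while no T0 loop of the locus was shorter than 145 kb. Over the whole T30 list the median fell with span, from 17 contacts at 20 to 50 kb to 10 at 200 to 500 kb. Contacts ran from 10 to 61 in T30, with a median of 14, and from 8 to 21 in T0, with a median of 11. Over the whole lists the medians were 13 in T30 and 14 in T0.

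The authors merged neighbouring bin pairs into clusters and gave the summed contacts of each. The largest T30 cluster held 338 contacts between the inner leading bin and a stretch of 55 kb from 77360001. A second cluster joined that bin to 55 kb around the gene start, from 77600001, with 185 contacts. The largest T0 cluster held 150 contacts between 25 kb at 77160001 and 25 kb around the gene start. In T30, 23 of 49 loops were part of a cluster with further contacts, against 5 of 24 in T0. The same shares were not counted over the whole lists, so this difference cannot be called particular to the locus.

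Loops were shorter in T30. The median span was 105 kb in T30, with quartiles of 55 and 180 kb, against 407.5 kb in T0, with quartiles of 261 and 464 kb. Over the whole lists the medians were 80 kb in T30 and 190 kb in T0, so the T0 loops of the locus were long also for their own list. Loops under 100 kb numbered 21 in T30 and 0 in T0, where a share of 0 of 24 allows up to 14.2% (exact interval). Over the whole lists 57.2% of T30 loops and 26.4% of T0 loops were that short. All 45 T30 loops other than the 4 that crossed the gene start had both ends in the gene. In T0, 5 loops had both ends in the gene, 14 joined the gene to sequence before its start and 5 joined it to sequence beyond its far end.

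The excess of loops in T30 lay at short spans. At spans of at least 145 kb, the shortest listed in T0 at the locus, there were 18 loops in T30 and 24 in T0, and over the whole lists 2771 and 4313. The inner leading bin still had 12 loops in T30 at these spans, against 1 in T0. Below 145 kb there were 31 loops in T30 and 0 in T0 at the locus, and 6820 and 2762 over the whole lists. In contacts, the locus had 243 in T30 and 13 in T0 at 100 to 200 kb, but 147 and 221 at 200 to 500 kb. Of the 31 T30 loops, 30 had at least as many contacts as the weakest T0 loop listed anywhere at a span within 20%, but only 7 had more than the median of such T0 loops. The loop of 61 contacts stood beside 460 T0 loops of like span, whose lowest count was 11 and median 20. The loop of 48 contacts stood beside 171, with a lowest count of 15 and a median of 26. How far the listing thresholds shaped the absence of short T0 loops was not tested.

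**Figure D3:**
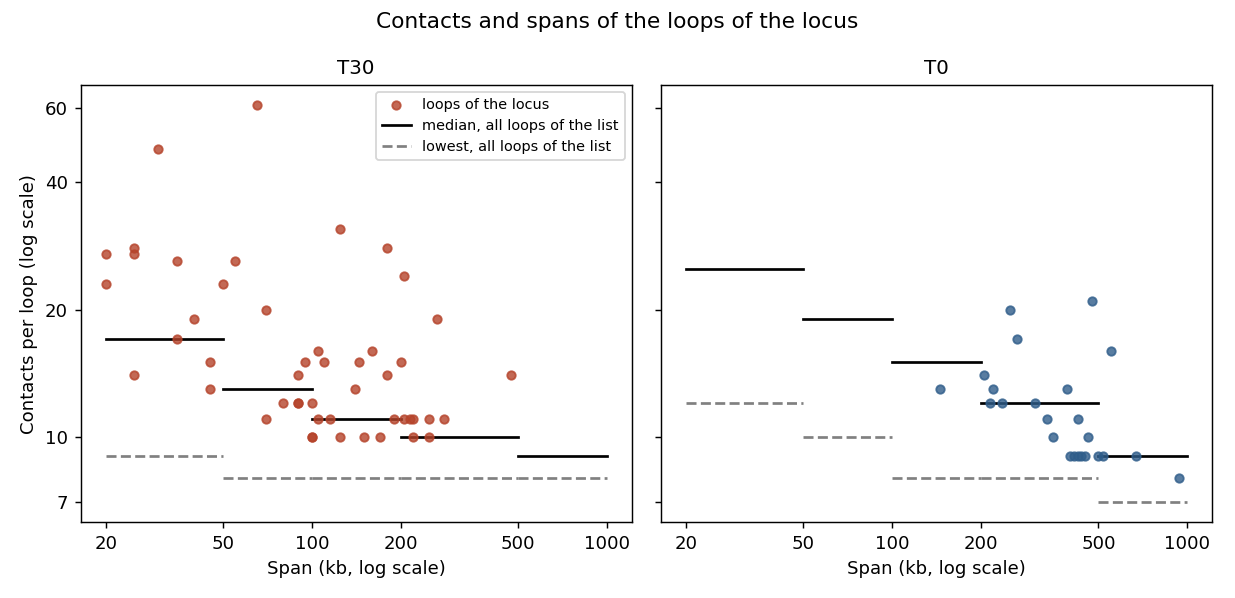
Points are the listed loops of the locus by span in kb and contacts (both on log scales), T30 on the left and T0 on the right. Black lines give the median and dashed lines the lowest contacts of all loops of that list in each span class, as 17 and 9 in T30 and 25 and 12 in T0 at 20 to 50 kb; the T30 points start at 20 kb and the T0 points at 145 kb.

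The part of the gene that was joined also differed. Loop ends between 200 and 300 kb into the gene numbered 42 in T30, or 42.9% of its 98 ends, against 6 of 48 in T0, or 12.5%. Up to 200 kb before the start there were 4 ends in T30 and 14 in T0. No T30 loop end lay in the last 295 kb of the gene, below 77165001. T0 had ends there at 77120001, at 77140001, the bin with the KCNMA1-AS2 start (9 contacts to the bin before the gene start), and at 76980001 and 76985001. The bin at 76980001, 655 kb into the gene, had 0 partners in T30 and 4 in T0. The 5 T0 loops at these last bins left the gene for sequence 350 to 940 kb away, with 8 to 10 contacts each, at or just above the lowest count of 8 that T30 listed at like spans. Of them, 3 ended in LRMDA, a gene named for melanocyte differentiation. The locus's bins overlapped no other protein-coding gene in either library.

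A few contacts were listed in both libraries. With loops taken as found in both lists when the clusters at both ends overlapped, 7 of 49 T30 loops (14.3%; exact binomial interval 5.94 to 27.2) and 7 of 24 T0 loops (29.2%; 12.6 to 51.1) were shared. Over all loops the shares were 16.4% and 22.2%. With both bins within 10 kb taken as shared, the locus again had 7 of 49 and 7 of 24, while over all loops the shares were 27.4% and 36.4%, so whether the T30 share of the locus lay apart from that of all loops depended on the definition. Matching each loop once gave 5 pairs, 4 of them with the same bins. The loop from 77430001, the bin that led in T30, to the bin of the gene start had 24 contacts in T30 (exact Poisson interval 15.4 to 35.7) and 14 in T0 (7.65 to 23.5). It was the only pair of the 5 that was higher in T30, as were 12.4% of the 1389 matched pairs of the genome. The loop from 77165001 to the bin before the start had 14 contacts in T30 and 21 in T0, and the loop from 77390001 to that bin had 11 and 20. The loop from 77390001 to 77605001 had 11 and 12, and a loop from 77495001 to the gene start region had 13 in each. The ratio intervals of all 5 pairs included 1. Like contacts did not have like p-values in the lists. The loop from 77390001 to 77605001, at the same bins in both, had an authors' p of 2.05e-07 in T30 and 6.03e-05 in T0. The pair of 13 contacts in each had 5.20e-08 and 0.000212, but it ended at 77635001 in T30 and at 77640001 in T0.

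**Figure D4:**
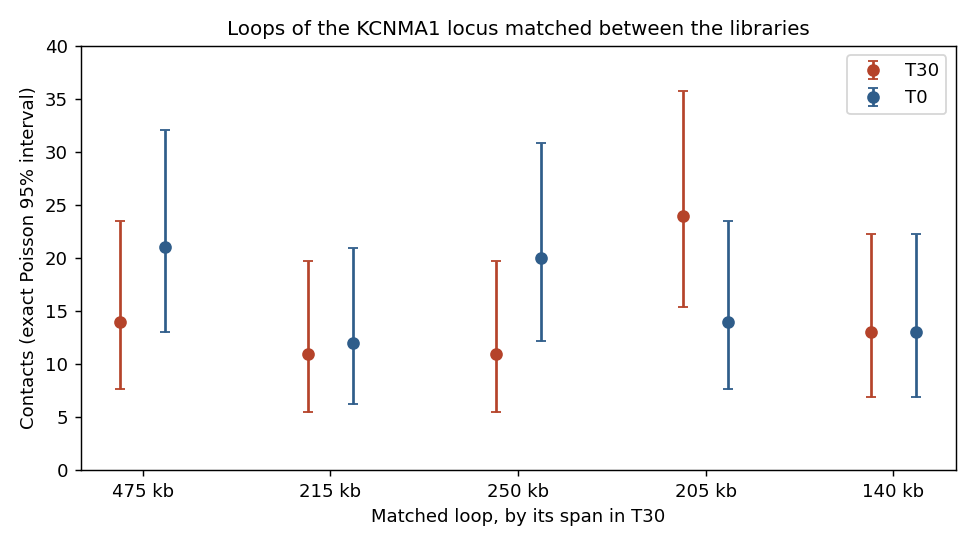
Contacts (vertical axis) of the 5 matched loops, named by their span in T30, in T30 (left point of each pair) and T0 (right point), with exact Poisson 95% intervals. The intervals overlap in each pair, and the loop of 205 kb is the only one with more contacts in T30, 24 against 14.

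As a whole gene, KCNMA1 had 39 distinct partner bins in T30 and 15 in T0, or 5.08 and 1.95 per 100 kb of gene. With the gene widened by 10 kb, which takes in the bin that led in T0, they numbered 39 and 25. Among 1000 protein-coding genes of at least 250 kb, it ranked 2 in T30 and 6 in T0. A difference of at least 2-fold towards T30 was common: 49.9% of 742 protein-coding genes with 5 or more partners in either list had one, and 17.4% had one towards T0. The genes of at least 250 kb whose partner counts were most like those of KCNMA1, by distance on the log2(partners + 1) scale over the 2 libraries, were MCF2L2 (15 in T30 and 10 in T0), NR6A1 (14 and 9), MED13L (13 and 10), FGF12 (12 and 16) and DLG1 (13 and 8). The nearest of them, MCF2L2, was 1.43 away on that scale, which uses the same counts by which KCNMA1 was chosen.

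The neighbouring protein-coding genes were LRMDA, 309 kb below the gene, with 1 partner in T30 and 7 in T0, and DLG5, 153 kb above its start, a scaffold protein gene of epithelial polarity, with 6 and 1. No listed loop joined KCNMA1 and DLG5. Beyond the window, the nearest bin with a loop on the upper side was at 77845001 in DLG5 in both libraries, with 29 contacts in T30 and 18 in T0. The last bins inside were at 77710001 in T30 (11 contacts) and at 77715001 in T0 (16). On the lower side, the first bins inside were at 77165001 in T30 (33 contacts) and 76980001 in T0 (36), and the nearest bins outside with no loop into the window were at 76030001 (15) and 76305001 (11).

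Other genes of BK channels and their relatives were joined by loops in part. Of 15 such genes besides KCNMA1, 6 had a loop in T30 (40%) and 2 in T0 (13.3%), and over all 20052 protein-coding genes 23.4% and 19.6% had one. Among beta subunits, KCNMB3 had 1 loop of 16 contacts in T30 and none in T0, while KCNMB1, KCNMB2 and KCNMB4 had none in either. Among gamma subunits, which let BK channels open at lower voltage, LRRC26 had 4 loops with 91 contacts in T30 and 1 loop with 21 contacts in T0, and LRRC38, LRRC52 and LRRC55 had none. Among other Slo channels, the sodium-activated KCNT1 had 3 loops in T30 and 0 in T0, KCNU1, a channel of sperm, had 7 and 6, and KCNT2 had none. Among small and intermediate conductance calcium-activated channels, KCNN1 had 4 loops in T30 and 0 in T0, KCNN3 had 1 and 0, and KCNN2 and KCNN4 had none. In partner bins, 5 of the 15 genes had more in T30, against 16.4% of all protein-coding genes. Only 1 of the 15, KCNU1 with 4 in T30 and 5 in T0, had fewer, against 11.5% of all. The median change over the 15 genes was 0, as over all protein-coding genes. With 1 library per condition and few genes, these counts had no test.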

How the data were processed

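Loops were taken from 2 deposited lists of T47D cells, 1 for T30 and 1 for T0, of the 23 samples of the series. The authors deposited pairs of 5 kb bins under a q-value of 0.05, neighbouring contacts merged, per the files' names and values. Bowtie, hg38 and GRCh38 stand in the submitters' processing notes. Settings, versions and any pooling: not given in the sources used here. Counts of read pairs (contacts) were deposited with no normalization, per the file headers. The p-value and q-value of a loop were corrected for bias by the authors, per the file headers. A fraction per cluster was deposited by the authors and entered no result. Sequencing depth is unknown, since the lists hold only called loops: 135538 contacts in T30 and 127457 in T0.

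Gene ends came from a RefSeq table of GRCh38.p14; all 16 listed channel genes matched. A gene's partners are the distinct bins joined to bins that overlap it. Loops were shared where the clusters at both ends overlapped by at least 1 bp, and were paired once each, nearest bins first. Intervals are exact Poisson or Clopper-Pearson intervals at 95%; read pairs need not be independent molecules. There was no test between libraries. Members and lists were chosen with earlier results of these data known. The text names, for each library, the 5 strongest loops and the 5 bins joined to most others, with ties given in part, the shared loops, genes at loop ends, the nearest genes and the 5 most similar long genes. Steps were tested on simulated lists. The software was scipy 1.17.1, pandas 2.3.3, numpy 2.4.6 and matplotlib 3.10.9 under Python 3.11.15.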

Additional observations from a re-analysis of the deposited data

How the results depend on the processing

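Results were recomputed at q under 0.01, with at least 10 contacts, at spans of at least 20 kb, with lists of equal length, with both bins in the window, and with other gene ends, matches and scalings. Chosen after seeing the data were a common p limit, the largest p of the T30 list, and a minimum span of 145 kb. Of 43 recomputed values, 35 stayed within 1.5 times the reported value (for the contact ratio, inside its counting interval), 6 moved and 2 reversed. Within that tolerance the difference in loops ran from 22, with lists of equal length, to 34 with at least 10 contacts and 37 at the common p limit, in place of 25. The limits of 10 contacts and of p could not remove a T30 loop of the locus. The span limit of 20 kb removed no loop of the locus in either library, so its values could not move. All loops of the locus had an end in KCNMA1, so both counts of loops repeat each other, save with other gene ends. The 35 thus include values that could not differ. The difference in loops reversed at spans of at least 145 kb, to -6 (18 in T30 and 24 in T0). Contacts were not summed at that limit, but by span class their excess in T30 lay under 200 kb. At 100 to 200 kb the locus had 243 contacts in T30 and 13 in T0. At 200 to 500 kb it had 147 and 221, and at 500 to 1000 kb 0 and 51. Partners were not recomputed by span, so whether their difference held at long spans was not tested. The contact ratio of matched loops, T30 over T0, was 0.912 unscaled and 1.37 when scaled by the median ratio of all matched loops (0.667), so its direction rested on the scaling. With the gene widened by 10 kb, which takes in the T0 hub, the difference in partners was 14 (39 in T30 and 25 in T0) in place of 24. At the bin of the gene start alone, the differences in loops and in partners were 2 each. The difference at the bin that led in T0 was -6 both at q under 0.01 and at the common p limit, in place of -11. Loops shared by identical bins numbered 4 in place of 7. No paired analysis was possible because each condition has 1 library and no result comes from a test. With 11 to 24 contacts a loop, the counting intervals of the libraries overlapped in each of the 5 matched pairs.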
